A study of Mus musculus with 3 samples.

Results

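Single-base substitutions in olfactory receptor genes were examined in whole-genome sequencing data of 3 haploid mouse embryonic stem cell lines. Every substitution assigned to a gene whose symbol starts with Olfr was taken from the deposited table of exonic variants, with 1 entry per position and gene. This gave 543 sites in 129 genes, which is 4.66% of the 11650 sites in 2200 genes of the table. The RefSeq annotation of GRCm38.p6 described all 129 genes as olfactory receptors, with 125 listed as protein coding and 4 as transcribed pseudogenes (*Olfr1010*, *Olfr1038-ps*, *Olfr1273-ps* and *Olfr471*).

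The lines were androgenetic haploid ESCs, which hold a paternal genome without a maternal one, labelled C57BL/6 and grown in 2i/Lif medium. O48 was the parental line (WT by its label, passage 40), ΔDSM-O48-1 carried mutations of *Dmpk*, *Six5* and *Mbnl1* (passage 60), and ΔDSMD-O48-2 carried a *Dmwd* mutation in addition (passage 70). The deletions of the *H19* and *IG* DMRs in O48 were thus shared by all 3 lines, and the mutant lines came from single-cell clones after transfection of a Cas9 plasmid. Genomic DNA of each line was sequenced as 1 library, so nothing below has a replicate, and each test on reads compares libraries, not genotypes.

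Olfactory receptors are G protein-coupled receptors that bind odorants on the cilia of sensory neurons of the nose. Their genes form one of the largest families of the mouse genome, are mostly encoded by a single coding exon, and lie in tandem arrays of close relatives and pseudogenes. A mature sensory neuron expresses 1 allele of 1 receptor gene. In a haploid genome, a position present as a single copy holds a single base.

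A site was counted as carried in a line when the genotype held the alternate base and at least 10 reads covered the position. A carried site was called fixed when at least 80% of the reads with the reference or alternate base had the alternate base, and mixed otherwise. The median depth at the 543 sites was 28 reads in both O48 and ΔDSM-O48-1 and 27 in ΔDSMD-O48-2, and the reads summed to 14857, 14353 and 14006. The reference base of all 543 sites was that of the genome, and the lowest site quality was 43.88 on the Phred scale.

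Sequences at the sites on which the results turn are printed first, from the RefSeq genome GRCm38.p6, 5′ to 3′ on the coding strand unless another strand is named. Within *Olfr51* (chr11:51007308-51007358, plus strand) and *Olfr1378* (chr11:50969354-50969404, plus strand), the same 51 bases stand in the reference. This sequence was not particular to the pair. In each gene, the 51 reference bases centred on the changed base of residue 119, or of residue 120, occurred at 3 other places. These were *Olfr1376-ps1*, *Olfr1377* and the partner gene. *Olfr1377* had no listed site at residues 119, 120 or 122. In *Olfr51* and *Olfr1378*, the same 3 bases (capitals) had alternate reads. They change residues 119, 120 and 122, next to and in the DRY motif, the conserved Asp-Arg-Tyr at the inner end of the third transmembrane helix by which receptors of this class couple to G proteins.
Olfr51 reference: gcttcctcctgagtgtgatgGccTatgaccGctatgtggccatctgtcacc
Olfr51 alternate: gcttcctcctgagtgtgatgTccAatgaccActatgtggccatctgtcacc
Olfr1378 reference: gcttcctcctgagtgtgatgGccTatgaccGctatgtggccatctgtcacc
Olfr1378 alternate: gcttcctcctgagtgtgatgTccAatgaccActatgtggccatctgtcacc

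The changes of a stop codon are shown with the codon in capitals, because they are the coding changes of highest listed effect. They lie in *Olfr51* (chr11:51007442-51007492, plus strand), *Olfr1010* (chr2:85754266-85754316, plus strand) and *Olfr1273-ps* (chr2:90295939-90295989, minus strand).
Olfr51 reference: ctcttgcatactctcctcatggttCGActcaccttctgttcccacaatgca
Olfr51 alternate: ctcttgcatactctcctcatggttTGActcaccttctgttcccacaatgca
Olfr1010 reference: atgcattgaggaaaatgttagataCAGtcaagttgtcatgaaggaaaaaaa
Olfr1010 alternate: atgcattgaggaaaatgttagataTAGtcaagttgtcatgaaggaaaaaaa
Olfr1273-ps reference: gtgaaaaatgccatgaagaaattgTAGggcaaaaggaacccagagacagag
Olfr1273-ps alternate: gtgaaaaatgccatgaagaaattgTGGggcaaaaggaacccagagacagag

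The 3 sites of *Olfr471* (chr7:107861037-107861093, written on the plus strand of the genome) are shown because they gave the largest difference between lines, and they adjoin a run of A. The codon of residue 44 of *Olfr1109* (chr2:87093240-87093290, minus strand) is shown because 2 substitutions fall in it.
Olfr471 reference: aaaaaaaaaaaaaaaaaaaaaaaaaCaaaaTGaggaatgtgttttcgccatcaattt
Olfr471 alternate: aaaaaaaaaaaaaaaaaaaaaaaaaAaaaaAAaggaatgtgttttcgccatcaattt
Olfr1109 reference: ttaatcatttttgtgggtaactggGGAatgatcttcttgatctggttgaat
Olfr1109 alternate: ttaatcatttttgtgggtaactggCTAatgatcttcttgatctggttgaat

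Most sites in olfactory receptor genes were fixed. In O48, 439 sites were fixed, 60 were mixed and 44 had under 10 reads or no genotype. In ΔDSM-O48-1 the counts were 432 fixed, 54 mixed, 5 with the reference genotype and 52 with too few reads. In ΔDSMD-O48-2 they were 432 fixed, 43 mixed, 19 reference and 49 with too few reads. Mixed sites thus made up 12.02% of the carried sites in O48 (exact Clopper-Pearson 95% interval 9.30 to 15.2), 11.1% in ΔDSM-O48-1 (8.46 to 14.2) and 9.05% in ΔDSMD-O48-2 (6.63 to 12). These intervals cover counting error only and treat sites as independent, although sites of 1 gene share reads and PCR copies are not separate molecules.

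In genes outside the chemoreceptor families, mixed sites made up 53.5%, 53.5% and 53.7% of the carried sites in O48, ΔDSM-O48-1 and ΔDSMD-O48-2. The vomeronasal receptor genes, another chemoreceptor family, which serves pheromone detection, had 554 sites in 13 genes, of which 98.5%, 99.2% and 98.9% of those carried were mixed. The share for olfactory receptor genes therefore lay below those of the rest of the table in each line, and the intervals did not overlap. Other genes in the regions of the receptor sites also had few mixed sites, however. In the chromosome 2 array with 434 receptor sites, other genes had 42 fixed, 2 mixed and 2 of unlike class. Receptor genes there had 385, 18 and 14. The 52 sites of other genes lay in only 3 genes, so they cover little of the array. In the stretch that held them, the annotation used here had no coding sequence of other genes. A low share was thus not particular to the receptor genes in that array. On chromosome 11 the receptor genes had more mixed sites than their neighbours. The arrays there with 45, 52 and 8 receptor sites had 6, 11 and 3 mixed ones. The 23, 26 and 1 sites of other genes in them were all fixed. The size of the receptor share depended on which sites were counted. Among sites with no other substitution within 100 bp, mixed ones made up 3.41%, 2.87% and 2.30% of the carried receptor sites of the same lines, against 22.8%, 23.9% and 22.8% in other genes. With sites counted as carried at an alternate share of at least 20%, the receptor values were 5.79%, 6.70% and 7.10%, and those of other genes 43.2%, 43.6% and 43.8%. At that limit the receptor share rose from O48 to ΔDSMD-O48-2, whereas it fell in the main counts. No site was listed in a trace amine-associated receptor gene.

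Over the 3 lines, 436 sites were fixed in every line with enough reads, 38 were mixed in every such line, 27 had unlike classes and 42 had too few reads in all lines. Of the 484 sites with 10 or more reads and a genotype in all lines, 422 were fixed in all 3. At 403 of these no reference read was found in any line, and the 422 sites together had 33 reference reads among 35708. The lowest alternate share at any of them was 85.7%, with at most 4 reference reads in a line. Mixed sites were spread over a wide range, from 8.82% to 79.4%, with a median of 18.1% in O48, against 24.3% for ΔDSM-O48-1 and 27.3% for ΔDSMD-O48-2.

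**Figure D1:**
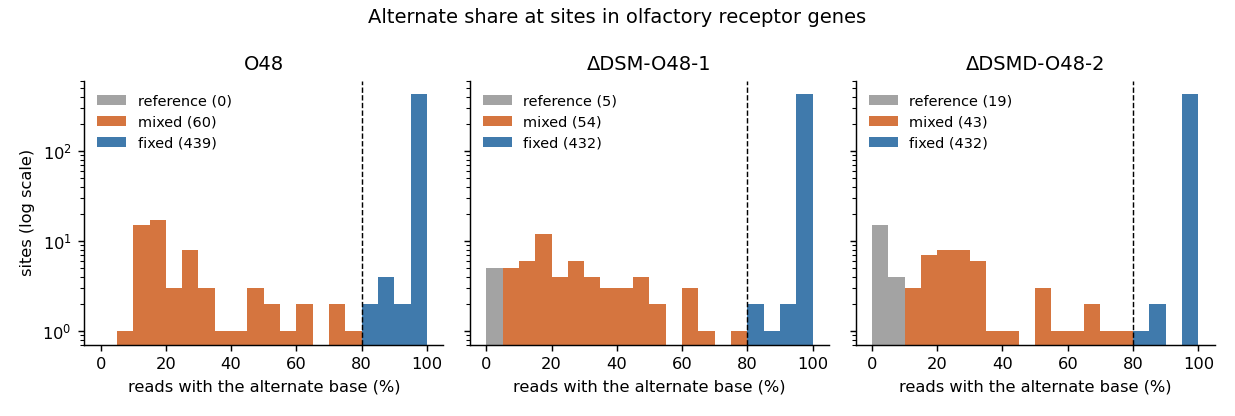
Histograms of the share of reads with the alternate base (x axis, percent, bins of 5) at olfactory receptor sites with a genotype and at least 10 reads in each of the 3 lines; the y axis is the number of sites on a log scale and the dashed line marks 80%. The 439, 432 and 432 fixed sites stand almost entirely in the last bin, and the mixed sites lie mostly below 40%.

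The sites just inside the limit of 80% belonged mostly to a few genes that also had mixed sites. In O48 they were *Olfr1098* S275P with 42 of 51 reads (82.4%), a site in the 5′ region of *Olfr1080* with 10 of 12 reads (83.3%) and *Olfr1061* D52E with 24 of 28 reads (85.7%). Just outside lay *Olfr1098* M255T with 42 of 55 reads (76.4%), *Olfr1061* L71H with 30 of 41 (73.2%) and *Olfr1080* T49N with 15 of 21 (71.4%). In ΔDSM-O48-1, *Olfr1014* R260W with 27 of 34 reads (79.4%) was nearest below the limit, and in ΔDSMD-O48-2 *Olfr51* R165* with 25 of 31 (80.6%) was nearest above it.

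The 543 sites lay on 3 chromosomes, with 434 on chromosome 2, 105 on chromosome 11 and 4 on chromosome 7. The annotation holds 1427 Olfr genes on 19 chromosomes, and 16 of these chromosomes, with 652 Olfr genes, had no site at all. On chromosome 2, 110 of 377 Olfr genes had a site, against 17 of 104 on chromosome 11 and 2 of 294 on chromosome 7. When annotated genes up to 1 Mb apart were joined, the Olfr genes formed 64 arrays, and 6 of them held a site. Of the 23 arrays with 10 or more genes, 4 did.

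Sites up to 1 Mb apart fell into 7 clusters. The largest spanned chr2:85579944-87309737 and held 341 sites in 75 genes, of which 303 were fixed, 12 mixed, 14 of unlike class between lines and 12 without enough reads. The next, at chr2:89151276-90296836, held 93 sites in 35 genes (82 fixed, 6 mixed, 5 with too few reads). Both lie in 1 annotated array of 293 Olfr genes, 222 of them coding, that is 5071 kb long.

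Between these 2 clusters, a run of 81 coding receptor genes from *Olfr1120* to *Olfr1222*, spanning 1768 kb, held no site, neither in Olfr genes nor in any other gene. These end genes were picked out after the values were seen. In the cluster before it, 73 of 87 coding receptor genes had a site, and in the cluster behind it 34 of 46 did. The other arrays of chromosome 2, with 37 and 47 Olfr genes, had no site either. The table lists variant positions only, so the depth of positions without a variant was not measured here.

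**Figure D2:**
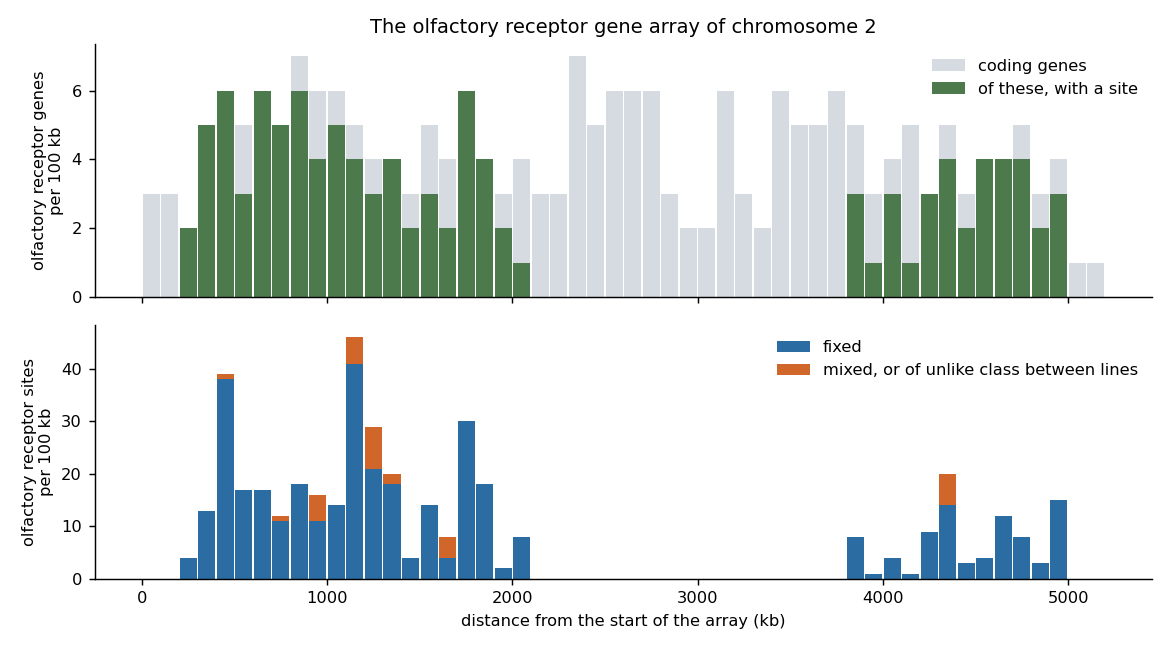
The olfactory receptor array of chromosome 2 in steps of 100 kb, with the distance from its start on the x axis; the upper panel counts coding receptor genes (grey) and those with a site (green), and the lower panel counts fixed sites (blue) and sites that were mixed or of unlike class (orange). Genes are present along the whole array, whereas sites stop near 2100 kb and resume near 3800 kb.

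On chromosome 11, 45 sites in 11 genes lay at chr11:49113050-49514578 (35 fixed, 6 mixed), 52 sites in 4 genes at chr11:50969374-51027859 (13 fixed, 11 mixed, 9 of unlike class, 19 with too few reads), and 8 sites in 2 genes at chr11:52144767-52213178. Of the carried sites on chromosome 11, 36.7% were mixed in O48 (95% interval 26.1 to 48.3), against 6.73% on chromosome 2 (4.52 to 9.58). The corresponding shares were 36.5% and 6.57% in ΔDSM-O48-1 and 30% and 5.45% in ΔDSMD-O48-2. All mixed sites of chromosome 11 lay in *Olfr51*, *Olfr1378*, *Olfr1392* and *Olfr1371*, so its share rests on few genes and the interval is too narrow. Sites of other genes inside the first chromosome 11 cluster numbered 23, and all were fixed. The array around the second cluster there held 26 sites of other genes, all fixed. Inside the first chromosome 2 cluster, 42 of 52 sites of other genes were fixed, and the 52 lay in 3 genes.

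The density of fixed sites in receptor coding sequence was 3.38 per kb in the first and 1.69 per kb in the second cluster of chromosome 2. In the first cluster of chromosome 11 it was 2.24 per kb, and the coding sequence of the 3 other genes there had 2.63 per kb. On chromosome 7, 1 fixed site was found in *Olfr298* (P56A, with 32, 29 and 31 reads in O48, ΔDSM-O48-1 and ΔDSMD-O48-2, all with the alternate base), and the remaining 3 were those of *Olfr471*.

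Among the 129 genes, 124 had a fixed site, and in 114 every site with enough reads was fixed in all such lines. A mixed site or a site of unlike class was found in 14 genes, of which 10 also had fixed sites and 4 had none (*Olfr1250*, *Olfr1080*, *Olfr1371* and *Olfr471*). The median was 3 sites per gene, with 36 genes at 1 site and 43 at 5 or more.

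*Olfr1066* had the most fixed sites, 20, of which 15 were nonsynonymous and 5 synonymous. The depth at its sites ran from 1 to 38 reads in O48, and 4 neighbouring sites had under 10 reads in every line. *Olfr1082* had 16 fixed sites (11 nonsynonymous, 3 synonymous and 2 in the 5′ UTR), among them L188P and R235C, both with the alternate base in every read of all 3 lines. In *Olfr1109*, by contrast, 8 of 12 fixed sites were synonymous, as were 7 of 11 in *Olfr259* and in *Olfr228*, 7 of 9 in *Olfr1058* and 7 of 8 in *Olfr1013*. *Olfr1393* had 11 fixed sites (6 nonsynonymous), *Olfr1084* had 10 (7 nonsynonymous) and *Olfr1018* had 9 (3 nonsynonymous).

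**Figure D3:**
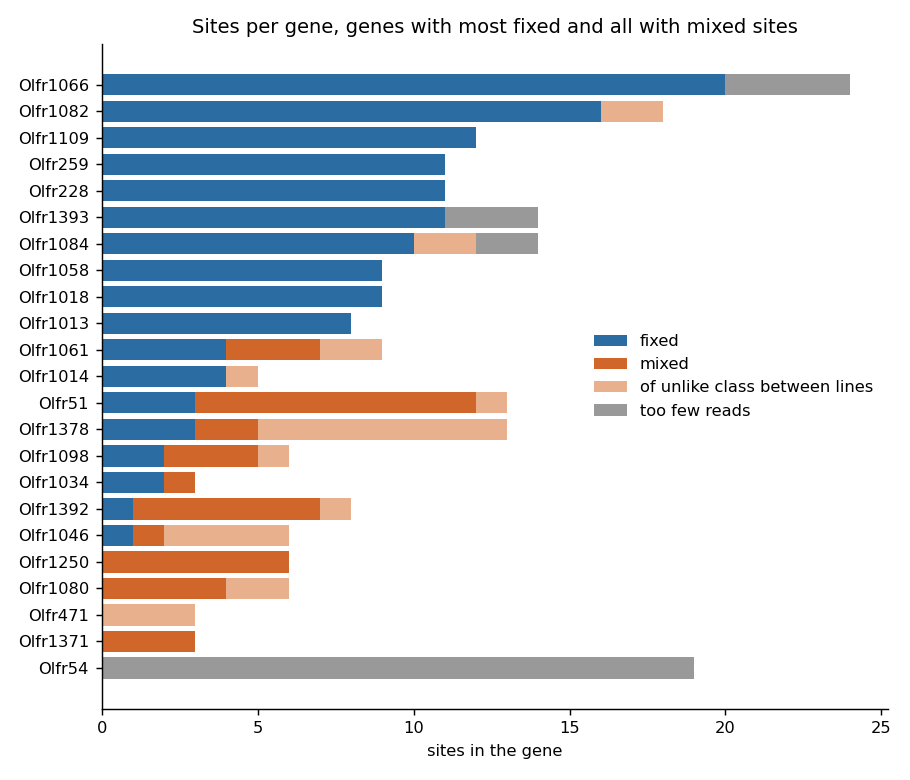
Number of sites (x axis) in the 10 genes with most fixed sites, in all 14 genes with a mixed site or a site of unlike class, and in *Olfr54*; colours give the class of a site over the 3 lines. *Olfr1066* leads with 20 fixed sites, *Olfr51* has 9 mixed sites, and all 19 sites of *Olfr54* have too few reads.

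Substitutions that change an amino acid of a receptor were about as frequent as silent ones. Over all sites, 246 were nonsynonymous and 260 synonymous, with 2 stop-gain, 1 stop-loss and 1 splice donor change, 15 sites in the 3′ UTR, 14 in the 5′ UTR and 4 that create an upstream start codon. No start codon was lost. A nonsynonymous site was found in 97 genes and a fixed one in 91, and 29 genes had synonymous sites without a nonsynonymous one.

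Of the fixed sites, 188 were nonsynonymous and 218 synonymous, that is 46.3% nonsynonymous (95% interval 41.4 to 51.3), and fixed sites of other genes had 49.95% (47.8 to 52.1). Of the mixed sites, 23 were nonsynonymous and 15 synonymous (60.5%, 43.4 to 76.0), and mixed sites of other genes had 69.2% (67.1 to 71.2). The interval of the fixed receptor sites overlapped that of the mixed receptor sites. For scale, 352026 single-base changes were possible in the coding sequence of 125 of the receptors. With those that create a stop codon left out, 65.5% of transitions and 81.6% of transversions would be nonsynonymous. At the share of transitions seen in the fixed coding sites this would be 70.3%. Transitions made up 70.2% of fixed sites (65.6 to 74.4) and 63.2% of mixed sites (46.0 to 78.2).

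By position in the codon, 217 of the fixed sites within RefSeq coding sequence lay on the third base (55.1%), 106 on the first and 71 on the second. Of the mixed sites, 17 lay on the third base (44.7%), 10 on the first and 11 on the second. Along the protein, divided into 3 equal parts from the N terminus, fixed sites numbered 132, 139 and 123, with 41.7%, 48.2% and 50.4% nonsynonymous.

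The stop-gain R165* in *Olfr51* (chromosome 11, position 51007466, C51007466T) had the alternate base in 31 of 35 reads in O48, 14 of 21 in ΔDSM-O48-1 and 25 of 31 in ΔDSMD-O48-2. It was thus fixed in O48 and ΔDSMD-O48-2 and mixed in ΔDSM-O48-1, but no pair of lines differed by Fisher's exact test (two-sided; lowest p = 0.0798, adjusted p = 0.459 over the whole table). The 31 reference bases around it also stand in *Olfr1376-ps1*, *Olfr1377* and *Olfr1378*.

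The stop-gain Q310* in *Olfr1010* (chromosome 2, position 85754290, C85754290T) was in all reads of each line, that is 35 for O48, 23 for ΔDSM-O48-1 and 25 for ΔDSMD-O48-2. The gene was listed as a transcribed pseudogene without coding bases in the annotation used here, and the frame of the listed change already holds 2 stop codons in the 24 reference bases printed before Q310. Its other 6 sites were fixed as well. In *Olfr1273-ps* the stop codon at residue 299 was replaced by tryptophan (*299W, position 90295964, T90295964C) in all 42, 36 and 38 reads. That gene was also listed as a pseudogene. Of 408 fixed sites with a coding effect, the table thus lists 1 as a stop-gain, and it lies in no annotated coding sequence. In the 125 coding receptors, which do not include *Olfr1010*, 3.65% of the possible coding changes would create a stop codon.

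Substitutions can share a codon, and then the listed change of each is not the change of both together. There were 11 codons with more than 1 site, and in 5 of them the joint change was not among those listed. In *Olfr1109*, G44V and G44R were both fixed, with 43, 30 and 31 alternate reads for G44V, and the codon with both bases reads leucine (G44L). In *Olfr228*, V40M and a silent change at residue 40 were both fixed and together give V40I. In 3 further codons with too few reads or unlike classes the joint change was also unlisted: T51M in *Olfr1393*, L200D in *Olfr54* and S335F in *Olfr471*. Whether both bases lay on the same reads was not measured in the table.

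The Asp-Arg-Tyr motif was found in 113 of the receptors with a site, and 5 had a substitution in it. *Olfr1026* R122C was fixed and changed the arginine. R122H was listed at the same residue of *Olfr51* and *Olfr1378* but was fixed in neither. It was mixed in *Olfr51*, and in *Olfr1378* it was mixed in O48 and ΔDSM-O48-1 and reference in ΔDSMD-O48-2. The 31 reference bases around it in *Olfr1378* occurred at 15 other places. The changes in *Olfr1024* (R127) and *Olfr1102* (Y135) were silent. The other 12 coding receptors with a site lacked the motif in the reference, and 4 of them hold it once the alternate bases of their fixed sites are set. These were picked out after the values were seen. In each, a fixed change to arginine at residue 122 completed it, namely H122R in *Olfr1022* (all 35, 26 and 27 reads in O48, ΔDSM-O48-1 and ΔDSMD-O48-2), W122R in *Olfr1076* (all 29, 28 and 26), H122R in *Olfr1089* (all 31, 27 and 16) and C122R in *Olfr1008* (30 of 30, 23 of 24 and 29 of 29).

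*Olfr51* had 9 mixed sites, 8 of them nonsynonymous. At A119S, 5 of 35 reads had the alternate base in O48, 5 of 33 in ΔDSM-O48-1 and 9 of 34 in ΔDSMD-O48-2, and at R122H the counts were 5 of 36, 5 of 31 and 8 of 34. The median share over the mixed sites of this gene was 14.3% in O48, 16.1% in the next line, ΔDSM-O48-1, and 23.5% in ΔDSMD-O48-2, and all 9 were carried in each line.

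In its neighbour *Olfr1378*, A119S had the alternate base in 5 of 38, 3 of 34 and 0 of 36 reads of the same lines, and R122H in 4 of 37, 3 of 33 and 0 of 35. A count of 0 among 36 reads allows a share of up to 8.33%, taking 3 counts as the limit. Both genes held the same 7 changes (A119S, Y120N, R122H, T133P, V142I, A150V and A173V). In *Olfr1378*, 6 of them had no alternate read in ΔDSMD-O48-2, and A173V was mixed in all lines (14 of 46, 9 of 36 and 9 of 39 reads). For A119S in this gene, the difference between O48 and ΔDSMD-O48-2 did not pass (Fisher's exact test p = 0.0546, adjusted p = 0.359).

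*Olfr1250* had 6 mixed sites and no fixed one, with the highest median depth of all genes, 49 reads over the lines. At N135, 29 of 57 reads had the alternate base in O48, 27 of 51 in ΔDSM-O48-1 and 28 of 56 in ΔDSMD-O48-2. Its other sites ran from 37.7% to 63.8% except C301S, at 4 of 31, 4 of 38 and 4 of 30 reads. *Olfr1392* had 6 mixed sites within its first 64 residues, 5 of them silent, with median shares of 25.7%, 34.7% and 32.4% in O48, ΔDSM-O48-1 and ΔDSMD-O48-2.

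In *Olfr1080*, 4 sites were mixed and 2 in the 5′ region were of unlike class. At M59V the alternate base was in 16 of 25 reads in O48, 14 of 35 in ΔDSM-O48-1 and 7 of 24 in ΔDSMD-O48-2, whereas at I40V it was in 3 of 16, 8 of 24 and 10 of 19. The order of the lines was thus opposite at these sites of 1 gene. For M59V, Fisher's exact test between O48 and ΔDSMD-O48-2 gave p = 0.0222 and an adjusted p = 0.207. The mixed sites of *Olfr1061* (3), *Olfr1098* (3), *Olfr1371* (3), *Olfr1046* (1) and *Olfr1034* (1) ran from 10.7% in *Olfr1371* to 76.4% in *Olfr1098*, both in O48.

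**Figure D4:**
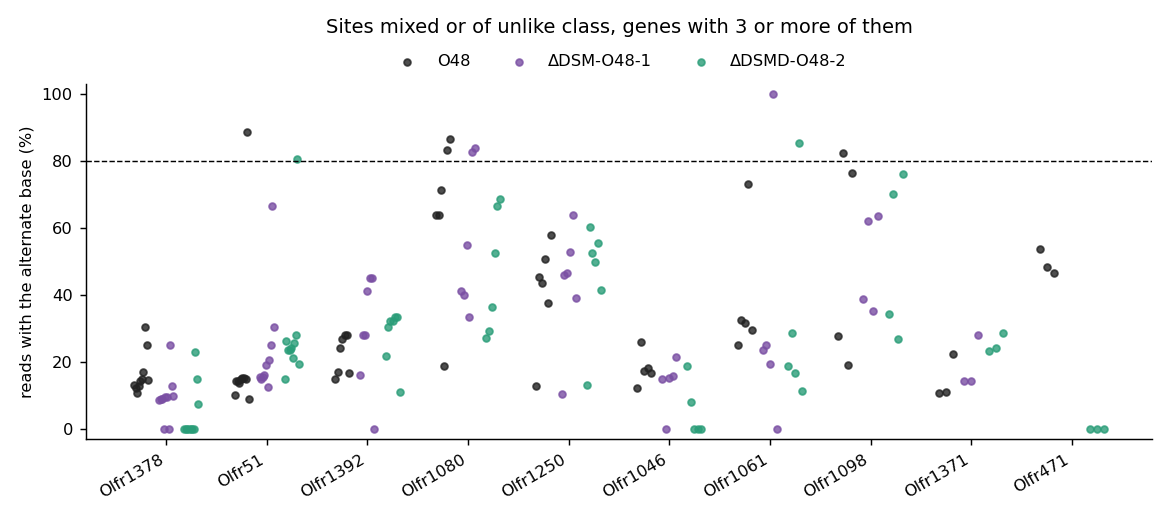
Share of reads with the alternate base (y axis, percent) at each site that was mixed or of unlike class between lines, for the 10 genes with 3 or more such sites; colours give the line, each point is 1 site, sites with under 10 reads or no genotype in a line are left out, and the dashed line marks 80%. In *Olfr1378* most points of ΔDSMD-O48-2 lie at 0, and in *Olfr471* those of O48 lie near 50% and those of ΔDSMD-O48-2 at 0.

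No olfactory receptor site had the reference genotype in O48, and 21 sites in 7 genes that were carried in O48 had it in a derived line, 5 in ΔDSM-O48-1 and 19 in ΔDSMD-O48-2. Counted in either direction at 10 or more reads, the genotype was reference in 1 line only at 1.02% of receptor sites between O48 and ΔDSM-O48-1, 3.86% between O48 and ΔDSMD-O48-2 and 3.09% between the mutant lines, against 20.04%, 20.2% and 19.5% of all sites. Sites fixed in every line cannot differ in this way. They were 436 of 543 receptor sites but 3864 of 10553 sites of other genes, so these shares are not of like sets. All 21 sites were mixed in O48, with shares from 10.8% to 53.8%. They lay in *Olfr1378* (8), *Olfr1046* (4), *Olfr471* (3), *Olfr1082* (2), *Olfr1084* (2), *Olfr1061* (1) and *Olfr1392* (1). A reference genotype did not always mean that no alternate read was found. *Olfr1046* T270I had that genotype in ΔDSMD-O48-2 at an alternate share of 8.11%, and the lowest share called mixed in ΔDSM-O48-1 was 8.82%. Loss of the alternate base was not tested by these genotypes.

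Reads of each pair of lines were compared at every site of the table with Fisher's exact test, and p-values were adjusted over all sites by the Benjamini-Hochberg method. Between O48 and ΔDSM-O48-1, 2 of 490 receptor sites were called at an adjusted p under 0.05, against 4.08% of all sites. Between O48 and ΔDSMD-O48-2, 3 of 492 were called, against 5.13%, and between ΔDSM-O48-1 and ΔDSMD-O48-2, 0 of 485, against 4.37%. A count of 0 among 485 allows a share of up to 0.619%. At an unadjusted p under 0.05 the receptor counts were 7, 11 and 3, that is 1.43%, 2.24% and 0.619%, against 14.2%, 14.6% and 14.4% of all sites. Most receptor sites were fixed in every line, and none of those was called. Among sites that were not, 2 of 62 receptor sites were called in the first pair (3.23%), 3 of 65 in the second (4.62%) and 0 of 62 in the last, against 6.61%, 8.001% and 6.80% of such sites in the whole table. With counts this small no difference from the table was read from them.

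The called sites between O48 and ΔDSM-O48-1 were both in *Olfr1061*. At the silent change of L66, 11 of 37 reads had the alternate base in O48, 0 of 30 in ΔDSM-O48-1 and 4 of 35 in ΔDSMD-O48-2 (Fisher's exact test, adjusted p = 0.0251 for O48 against ΔDSM-O48-1). At L71H, 14 bp away, the counts were 30 of 41, 29 of 29 and 29 of 34 (Fisher's exact test, adjusted p = 0.0474). The alternate base was thus less frequent in ΔDSM-O48-1 at the first site and more frequent at the second.

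The called sites between O48 and ΔDSMD-O48-2 were the 3 of *Olfr471*, within 7 bp. The splice donor change C107861062A had the alternate base in 14 of 26 reads in O48 and 0 of 26 in ΔDSMD-O48-2 (Fisher's exact test, adjusted p = 0.00059). A count of 0 among 26 reads allows a share of up to 11.5%. S335 had 14 of 29 and 0 of 29 reads, and S335L had 14 of 30 and 0 of 29. ΔDSM-O48-1 had no genotype at these positions, so the line between the others in descent gave no value. Between ΔDSM-O48-1 and ΔDSMD-O48-2 the lowest p was that of *Olfr1082* T49N, with 4 of 13 and 0 of 23 reads (Fisher's exact test p = 0.0121, adjusted p = 0.151).

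Mixed sites were more deeply covered than fixed ones. The median depth at fixed receptor sites was 28, 28 and 27 reads in O48, ΔDSM-O48-1 and ΔDSMD-O48-2, and at mixed sites 37, 34 and 33. The line medians over all sites of the table were 32, 33 and 32. In other genes the medians were 31, 32 and 31 at fixed and 48, 46 and 45 at mixed sites. After *Olfr1250*, the genes with the highest median depth over the lines were *Olfr1115* (42 reads, 1 fixed site), *Olfr1046*, *Olfr1098* and *Olfr1392* (37 each), and apart from *Olfr1115* all of these had mixed sites.

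At the other end, *Olfr54* had 19 sites with a median of 3 reads over the lines and at most 9, and none reached the minimum. *Olfr1248* followed with a median of 6, *Olfr1040* and *Olfr1373* with 8, and *Olfr1393* with 11.5. Of these, *Olfr1393* still had 11 fixed sites. The sites of *Olfr54* made up 19 of the 42 that had too few reads in every line.

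The receptor genes with mixed sites had close relatives in the reference. For 13 genes with a mixed site or a site of unlike class and a coding sequence, the identity to the closest olfactory receptor coding sequence was 96.8% in the median (range 69.8 to 98.1), and 10 of them had a relative of at least 90% identity. For the 111 coding genes with fixed sites alone the median was 87.6% (range 64.7 to 98.7), and 48 were at 90% or above. The lowest value was that of *Olfr1046*, whose closest coding relative was *Olfr1047*, although windows of its mixed site I314 and of its sites of unlike class T270I and H53R matched *Olfr1050-ps1*.

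**Figure D5:**
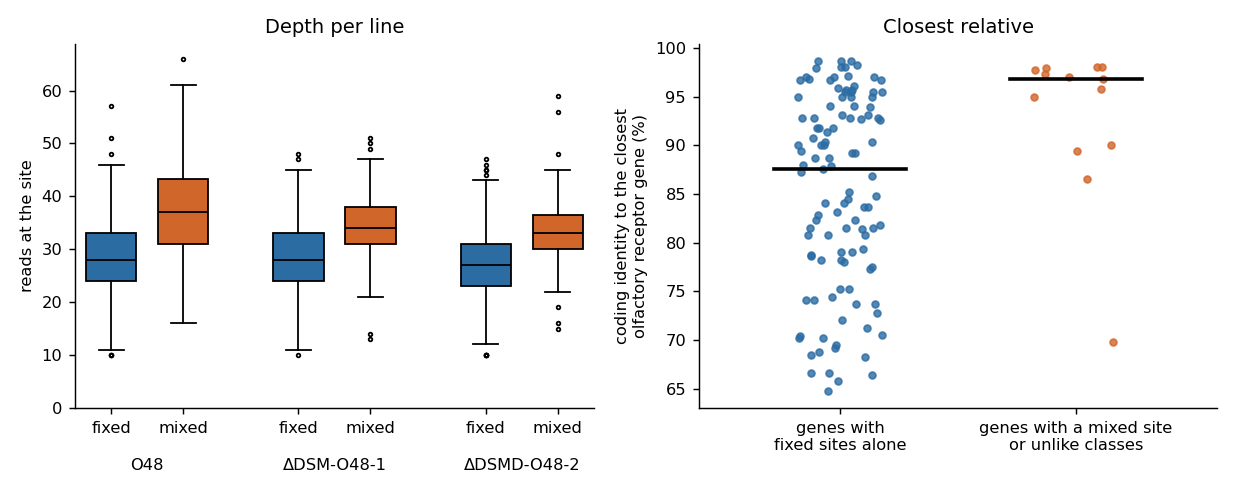
Left, depth in reads at fixed (blue) and mixed (orange) receptor sites of each line, with boxes from the lower to the upper quartile, a line at the median, whiskers to 1.5 times the interquartile range and single sites beyond; right, identity of each gene's coding sequence to its closest olfactory receptor relative in percent, with bars at the medians of 87.6% and 96.8%. Points are spread sideways for visibility.

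The 31 reference bases centred on a site occurred elsewhere in the genome for 17.4% of fixed sites (95% interval 13.99 to 21.3), 44.7% of mixed sites (28.6 to 61.7) and 51.9% of sites of unlike class (31.9 to 71.3). Of 28 gaps between neighbouring mixed sites of a gene, 15 were 31 bp or less. Many windows of mixed sites therefore overlap or adjoin, and their interval is too narrow. The same window with the alternate base, alone or with the alternate bases of neighbouring sites, occurred for 17.7% of fixed (77 of 436), 39.5% of mixed (15 of 38) and 14.8% of sites of unlike class (4 of 27). The base of the closest relative at the aligned position was the alternate base for 36.8% of fixed, 36.8% of mixed and 19% of sites of unlike class (4 of 21), and for 20 of 40 sites with too few reads. These shares describe the reference. The part of repeated sequence, or of depth, in the mixed calls was not tested.

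Some residue changes stood at the same residue number in more than 1 receptor gene. Of 61 coding sites that were mixed or of unlike class, 27 (44.3%) had the same residue label in another receptor of the table, and of 408 fixed coding sites 52 (12.7%) did. For silent sites, which are among both counts, the label holds only the residue and its number. Their bases and codons were not compared, so these need not be the same substitution. Of these 27, 14 were the 7 changes of *Olfr51* and *Olfr1378*, counted in both genes, and 13 lay outside this pair. The same label stood in the closest relative for 9 of the 61 and 13 of the 408 sites. *Olfr1061* L82S was mixed (14 of 44, 6 of 31 and 6 of 36 reads), while L82S of its closest relative *Olfr1066* had the alternate base in all 14 reads of O48, all 13 of ΔDSM-O48-1 and 6 of 7 of ΔDSMD-O48-2. *Olfr1080* M59V was mixed and *Olfr1082* M59V fixed, with all 31, 15 and 16 reads. *Olfr1084* S116A had 5 of 28, 5 of 29 and 3 of 36 reads, and *Olfr1082* S116A all 23, 30 and 16. Residue numbers were taken from the table and not aligned between genes.

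Of 27 genes listed for odorant signalling and for the choice and expression of receptors, 5 had a site, and the 10 sites were in untranslated regions except for a silent one. The share of all annotated genes with a site was not measured, so 5 of 27 was not read as many or few. *Gnal*, which encodes the olfactory G protein alpha subunit, had 2 fixed sites in its 3′ UTR. *Ebf1*, a transcription factor of olfactory neurons, had the silent change T87 in all 47, 24 and 17 reads. *Emx2*, which encodes a homeobox factor needed for receptor expression, had 2 sites in its 5′ UTR that were called mixed in all lines, at 10 to 13 reads. The alternate reads were 4 of 12 and 3 of 10 in O48, only 1 of 11 at each site in ΔDSM-O48-1, and 3 of 13 and 2 of 10 in ΔDSMD-O48-2. *Ldb1*, a cofactor of the enhancer hubs of receptor genes, had 3 sites in its 5′ UTR, mixed in O48, with 2 of 16, 1 of 14 and 1 of 15 alternate reads in ΔDSM-O48-1 and 0 of 21, 0 of 20 and 0 of 21 in ΔDSMD-O48-2. *Gnb1*, a G protein beta subunit, had 2 sites in its 3′ UTR with no alternate read in O48 (0 of 23 and 0 of 21) and 4 of 18 and 3 of 18 in ΔDSM-O48-1, and 8 of 28 and 4 of 23 in ΔDSMD-O48-2.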

How the data were processed

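Genomic DNA libraries of 3 lines (1 library each) were sequenced. According to the submitters' processing notes, CASAVA 1.8.2, BWA 0.7.12, SAMtools, Picard, GATK and the build mm10 were used; their parameters and filters are not given in the sources used here. The authors deposited counts of reads at each site and of reads with the reference and alternate base, without normalization. Genotypes were deposited with them, and the deposited quality score per site is on the Phred scale. The authors' allele fraction refers to genotypes of the lines and was not used.

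Sites were reduced to 1 entry per position, alternate base and gene, with the effect of highest impact. The members and gene lists were chosen with earlier results of these data known. The named genes are those with stop or splice changes, the 10 with most fixed and most mixed sites, those at the limit of 80%, those differing between lines and those at the ends of the depth range. The search for runs of genes without a site and for changes shared between genes, and the shares among sites not fixed, were added after values were seen. Clusters joined sites up to 1 Mb apart. Shares have exact Clopper-Pearson intervals, lines were compared by two-sided Fisher's exact tests with Benjamini-Hochberg adjustment over the whole table, and coding sequences were aligned globally with edlib 1.3.9. The RefSeq annotation and genome of GRCm38.p6 were used, after its bases were checked against the table (equal at 11647 of 11647 substitutions).

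On simulated reads at the real depths, classes were returned for 99.85% of 10807 sites in the lowest line. The simulated shares were not those of the real sites, so this figure is not the accuracy of the real calls. Mixed receptor sites of ΔDSM-O48-1 ran from 8.82% to 79.4%, which comes close to the limit for a fixed site. How often real sites near that limit were classed wrongly was not tested. The test between O48 and ΔDSM-O48-1 recovered 72.5% of 200 sites simulated with shares of 25% and 75%, with 3 calls among 10607 unchanged sites. It recovered all 50 of those with 40 or more reads in both lines. Among the 142 with up to 45 reads in both lines, where most receptor sites lay, it recovered 63.4%. Tools were scipy 1.17.1, pandas 2.3.3, Biopython 1.88, numba 0.67.0, numpy 2.4.6 and matplotlib 3.10.9 under Python 3.11.15. Indels and protein sequences were not used here. The alternatives were other limits of share and depth, genotypes in place of shares, isolated sites, other cluster gaps and other windows.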

Additional observations from a re-analysis of the deposited data

How the results depend on the processing

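Of 110 values recomputed with other settings for 22 results, 84 stayed within the interval of the main value or within 1.5 times the main count. The other 26 moved further, and turns of direction were not scored. Limits of 70% or 90% for a fixed site, genotypes in place of shares, no depth minimum, 20 reads and leaving out pseudogenes by name kept the counts of fixed and mixed sites within 1.5 times. Counting only sites with no other substitution within 100 bp left 170, 169 and 170 fixed and 6, 5 and 4 mixed sites in O48, ΔDSM-O48-1 and ΔDSMD-O48-2, so that 3.41%, 2.87% and 2.30% of the carried sites were mixed, and 51.3% of the fixed ones were nonsynonymous. Calling a site carried at a share of at least 20% left 27 mixed sites in O48 and 31 in ΔDSM-O48-1 (5.79% and 6.70% of the carried sites). A gap of 2 Mb gave 4 clusters. An unadjusted p under 0.05 called 7, 11 and 3 sites for O48 against ΔDSM-O48-1, O48 against ΔDSMD-O48-2 and ΔDSM-O48-1 against ΔDSMD-O48-2, and a difference of genotype 5, 19 and 15, each a smaller share than in the whole table. Receptor sites were more often fixed in every line than other sites, and sites fixed in every line cannot differ by genotype. Reference windows of 21 bases were found elsewhere for 24.1% and of 51 bases for 8.72% of fixed sites; alternate windows were found for 24.5% and 11.7% of fixed sites, and at 51 bases for 23.7% of mixed sites. No paired analysis was possible because the labels give no replicate numbers and each line has 1 library. At the depth of these sites a difference between shares of 25% and 75% can be missed, and no spread between cultures was measured.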
